A study of Sus scrofa with 27 samples.

Results

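The genes described here act on the extracellular matrix of the lung: matrix proteases, a protease inhibitor, and genes of hyaluronan binding and crosslinking. They were chosen by name in the gene count table, as every row whose gene name was one of 10 symbols (MMP1, MMP9, TIMP1, ADAMTS1, ADAMTS4, ADAMTS9, HAS2, PTX3, TNFAIP6 and CD44), and rows with under 10 counts in every library were to be dropped. The rule found 8 of the 10 symbols, in 1 row each and all above that minimum, among 31908 genes in all. MMP1 and HAS2 are the names of no row, and 2 related rows are described after the 8 genes.

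The lungs came from 9 Large-White pigs, donated after circulatory arrest, kept through a cold ischemia period and then perfused outside the body for 12h (ex vivo lung perfusion, EVLP) with Steen solution that contained methylprednisolone, cefuroxime and heparin in both groups. In the Gold Standard group (GS, 5 pigs, numbered 9, 17, 44, 55 and 77) a part of the perfusate was exchanged at regular intervals, and in the Pediatric Dialysis group (PD, 4 pigs, numbered 2, 3, 4 and 5) continuous hemodialysis through a pediatric membrane was applied on the circuit instead. Each lung was biopsied after cold ischemia (0h) and at 6h and 12h, which gave 27 RNA-seq libraries. No lung without EVLP was followed over the same hours, and an isolated lung has no circulating supply of new blood cells, so a change from 0h is a change over time in the circuit.

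Total counts per library ran from 26335584 to 67522703 in GS and from 14650700 to 21820935 in PD. These ranges do not overlap, and RNA was extracted by 1 of 2 methods that the labels do not assign to samples, so depth and preparation cannot be told apart from the group in any comparison of levels between PD and GS. All 9 lung epithelial markers were detected in both groups, with a summed level at 0h of 8105 to 10646 CPM (counts scaled to a common library size) in GS and 27820 to 78909 in PD. The surfactant gene SFTPC alone was at 2698 to 4559 CPM in GS and 19106 to 74816 in PD, while SFTPB was lower in PD, at 239 to 1065 CPM against 1153 to 1790 in GS. The library of PD pig 2 at 12h stood apart, with a mean correlation of 0.787 with the other PD libraries at 12h, and PD results whose call or size it moves are given with and without it. In GS, pigs 9 and 17 were sequenced less deeply than the others, and fits within these pigs, chosen after the libraries were seen, are given where a call or its size differs.

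Matrix metalloproteinases (MMPs) are zinc proteases that cut collagens, gelatins and other matrix proteins, and the ADAMTS proteases include enzymes that cut large proteoglycans such as versican and aggrecan. Tissue inhibitors of metalloproteinases bind MMPs and block their active site. Hyaluronan is a long sugar polymer, made at the cell membrane by hyaluronan synthases, that holds water between cells. CD44 is its main cell surface receptor, and the proteins of TNFAIP6 (TSG-6) and PTX3 take part in linking hyaluronan to the heavy chains of inter-alpha-inhibitor. In the lung these genes are known from inflammation and tissue injury.

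In GS lungs, TIMP1, ADAMTS4, PTX3 and TNFAIP6 were at least 2-fold higher at 6h than at 0h, and these 4 genes and CD44 were at least 2-fold higher at 12h. With the pig not used as a block, TNFAIP6 did not pass at 6h (log2 FC 1.11, edgeR adjusted p = 0.300) or 12h (1.03, adjusted p = 0.288). In pigs 9 and 17 alone, ADAMTS4 did not pass at 6h (log2 FC 0.96, adjusted p = 0.0903). In PD lungs, none of the 8 genes passed the test at 6h, and TIMP1, ADAMTS4 and PTX3 passed it at 12h. MMP9, a gelatinase, was not higher in either group at 6h. It was lower at 6h in 4 of 5 GS lungs and in all 4 PD lungs. With every library kept, neither fall was past the adjusted threshold in edgeR within its group. No gene of the 8 passed the edgeR interaction test for a difference between PD and GS in its change over time.

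A gene was called changed from 0h where edgeR's quasi-likelihood test, with the pig as a block, gave a Benjamini-Hochberg adjusted p under 0.05 over all genes tested and the fold change (FC) was at least 2. By this rule 4 of the 8 genes were called higher in GS at 6h, against 5.5% of 18594 genes tested. At 12h in GS 5 of 8 were called higher, against 6.99% of the genes tested. In PD 0 of 8 were called at 6h, where 0.135% of 15545 genes were called higher, and 5 of the 8 had an unadjusted p under 0.05 beside 9.41% of all genes. DESeq2 called 2 of the 8 in PD at 6h, MMP9 lower and ADAMTS4 higher, among 408 genes it called over the whole table where edgeR called 22. At 12h in PD 3 of 8 were called higher, against 3.22% of genes. These calls were lost without pig 3 or without pig 5. Leaving out 1 pig at a time, the number of genes called over the whole table ranged from 0 to 3826. Without the library of pig 2 at 12h, 7 of 8 were called, MMP9 lower and the rest higher, among 4161 genes over the whole table. With all libraries kept and each group fitted on its own, edgeR called no gene of the 8 lower in these comparisons. Other fits called MMP9 lower in PD, as given with its values. The median log2 FC over the 8 genes was 1.03 at 6h and 1.08 at 12h in GS, and 0.85 and 1.33 in PD, while the median over all genes tested lay between -0.08 and -0.02. The 8 genes were chosen with earlier results of these data known, so these counts describe them and do not test the set. Markers of other cell types were called in the same comparisons. Of 9 epithelial markers 1 was higher in GS at 6h and 3 at 12h, and of 8 monocyte and macrophage markers 1 was higher in GS at each time. Of 4 T lymphocyte markers 1 was lower in GS at 6h, 2 in GS at 12h and 1 in PD at 12h, and of 7 endothelial markers 1 was lower in GS at 6h. Their part in the values of the 8 genes was not tested.

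**Figure D1:**
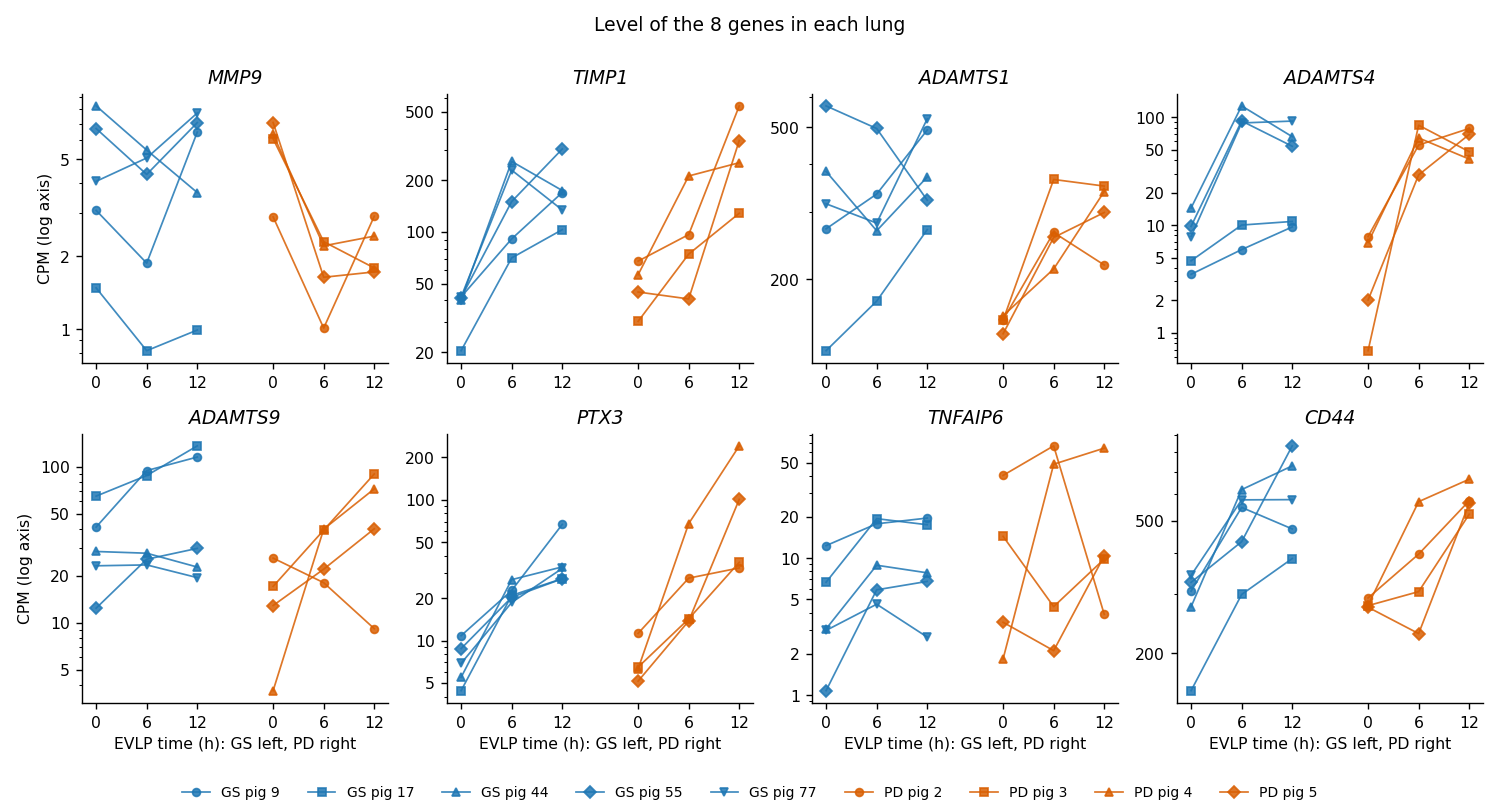
Level of the 8 genes in CPM (log axis) in each lung at 0h, 6h and 12h, with GS pigs in blue on the left of each panel and PD pigs in orange on the right; each line joins the biopsies of 1 lung. TIMP1 and PTX3 were above every 0h value of their group in all 9 lungs at 12h, and ADAMTS4 in GS split into pigs 9 and 17 below and the other 3 pigs above.

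Sequence from directly before the transcription start is shown for the 3 genes in which a search for 5 short motifs gave a match, since they differ in how they moved. The search used both strands of the 250 bases before the RefSeq start in Sscrofa11.1, but only the strand of the gene for the TATA motif. Motif letters are in capitals. PTX3 (chr13:97273344-97273593, plus strand) rose in both groups. It holds 2 overlapping matches to the NF-kB motif and a match on the other strand to the C/EBP motif. TNFAIP6 (chr15:881353-881602, minus strand) rose in GS and varied between the PD lungs. It holds 1 match to the AP-1 motif, TGANTCA. MMP9 (chr17:48179440-48179689, plus strand) holds 2 AP-1 matches, and its calls depended on the fit, as given with its values. Its window lies inside the longer MMP9 interval of the count table, which starts upstream of the RefSeq start.
PTX3: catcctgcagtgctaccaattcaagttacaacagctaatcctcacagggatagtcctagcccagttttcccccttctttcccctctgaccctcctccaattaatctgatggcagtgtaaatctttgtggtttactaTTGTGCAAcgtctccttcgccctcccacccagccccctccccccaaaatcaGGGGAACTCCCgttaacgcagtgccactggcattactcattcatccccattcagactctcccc
TNFAIP6: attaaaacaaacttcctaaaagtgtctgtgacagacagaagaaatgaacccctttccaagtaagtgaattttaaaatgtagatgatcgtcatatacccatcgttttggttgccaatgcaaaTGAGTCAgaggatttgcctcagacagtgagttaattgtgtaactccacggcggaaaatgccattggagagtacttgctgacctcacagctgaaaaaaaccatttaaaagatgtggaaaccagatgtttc
MMP9: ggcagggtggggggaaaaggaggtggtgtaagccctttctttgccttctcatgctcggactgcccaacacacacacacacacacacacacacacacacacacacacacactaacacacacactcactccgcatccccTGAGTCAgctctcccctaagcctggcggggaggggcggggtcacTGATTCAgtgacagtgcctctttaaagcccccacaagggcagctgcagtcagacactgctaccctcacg

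The PTX3 NF-kB matches begin 63 and 62 bases before the start, and its C/EBP match begins 114 bases before it. The AP-1 match of TNFAIP6 begins 129 bases before the start, and those of MMP9 begin 113 and 69 bases before it. The windows of TIMP1, ADAMTS1, ADAMTS4, ADAMTS9 and CD44 held none of the 5 motifs. Of 19569 pig promoters of the same length, 5.27% held the AP-1 motif, 13.99% the NF-kB consensus, 8.22% the C/EBP motif TTGCNNAA, 6.15% the TATA motif TATAAA and 1.70% the CRE motif TGACGTCA. A match is a stretch of letters and was not tested as a binding site.

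Among the proteases, MMP9 (ENSSSCG00000007436, chr17:48175056-48188264) encodes gelatinase B, which neutrophils store in granules. At 0h its level in GS pigs 9, 17, 44, 55 and 77, an order kept for all GS values, was 3.08, 1.48, 8.27, 6.68 and 4.05 CPM. It was 1.87, 0.817, 5.45, 4.33 and 5.05 CPM at 6h and 6.45, 0.993, 3.64, 7.06 and 7.73 CPM at 12h. The GS ranges overlapped at all 3 times and pig 17 was the lowest at each. The log2 FC in GS was -0.51 ± 0.31 (SE, n = 5 pigs) at 6h and 0.09 ± 0.31 at 12h, with edgeR adjusted p of 0.232 and 0.833.

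In PD pigs 2, 3, 4 and 5, an order likewise kept, MMP9 was at 2.90, 6.06, 6.31 and 7.07 CPM at 0h, 1.01, 2.29, 2.20 and 1.64 CPM at 6h, and 2.91, 1.79, 2.41 and 1.72 CPM at 12h. All 4 lungs were lower at 6h and the 0h and 6h ranges did not overlap. Of all genes, 4.79% had PD values at 6h wholly below those at 0h. These PD levels rest on 16 to 133 counts per library. The log2 FC was -1.65 ± 0.45 at 6h (adjusted p = 0.221) and -1.28 ± 0.45 at 12h (adjusted p = 0.112), so neither passed the adjusted threshold. With every library kept it was called lower at 6h and 12h by DESeq2 (adjusted p = 0.0180 and 0.0424) and by edgeR with all 27 libraries in 1 fit (adjusted p = 0.0287 and 0.0259). Without the library of pig 2 at 12h, MMP9 was called lower in PD at 6h (log2 FC -1.65, adjusted p = 0.0446) and at 12h (log2 FC -1.73, adjusted p = 0.0131).

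MMP9 was the single gene of the 8 whose 6h change did not overlap between the PD and GS pigs, which held for 3.13% of all genes. In an exact Wilcoxon test over pigs, on changes in DESeq2's regularized log2 counts, its mean change in PD minus that in GS was -0.71 (two-sided p = 0.0159, the smallest p that 4 against 5 pigs can give; adjusted p = 0.508). The edgeR interaction test gave a difference of -1.14 ± 0.52 at 6h (adjusted p = 0.783) and -1.40 ± 0.53 at 12h (adjusted p = 0.746). The 12h difference without the library of PD pig 2 at 12h was -1.83 ± 0.49 (adjusted p = 0.0872). Over the 8 genes that test gave an unadjusted p under 0.05 for MMP9, ADAMTS1 and ADAMTS4 at 6h and for MMP9 and ADAMTS4 at 12h, beside 5.85% and 5.98% of all genes, and DESeq2's interaction called none of the 8. The Wilcoxon adjusted p of 0.508 was the smallest of any gene at 6h, so that test could not call MMP9 even at its smallest p. A difference between the groups in the MMP9 change was not called by the interaction test of edgeR or DESeq2.

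Neutrophil markers were measured beside MMP9. Of 10 listed neutrophil genes, 7 were in the table by name. Their summed level in GS was 151 to 435 CPM at 0h (median 348), 212 to 253 at 6h (median 242) and 157 to 469 at 12h (median 335). In PD it was 626 to 1259 CPM at 0h (median 734), 237 to 1127 at 6h (median 350) and 259 to 1521 at 12h (median 447). S100A12 and S100A8 made up most of the PD sum, while MPO, whose RNA is made in immature neutrophils, was listed at 0 in every PD library. The summed ranges overlapped between times in both groups. Of 6 neutrophil markers tested, 0 were called in PD at 6h or 12h and 1 was called lower in GS at each time. The paper's scheme of the circuit with dialysis has a leukocyte filter ahead of the lung, and its part in these values was not tested. The part of neutrophil number in the MMP9 values was not tested either. In bulk tissue fewer cells of a type cannot be told apart from less RNA per cell.

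ADAMTS1 (ENSSSCG00000012026, chr13:190276424-190286205), a protease that cuts versican and aggrecan, was at 271, 130.0, 383, 568 and 315 CPM in GS at 0h. It was at 334, 175, 268, 496 and 281 CPM at 6h and at 492, 269.7, 370.4, 322 and 526 CPM at 12h. The GS lungs moved in different directions, with pigs 9 and 17 higher at both later times and pigs 44 and 55 lower at both. The log2 FC in GS was -0.07 ± 0.23 at 6h and 0.34 ± 0.23 at 12h (edgeR adjusted p = 0.851 and 0.248). At 12h it was 0.94 ± 0.17 in pigs 9 and 17 alone (adjusted p = 0.0267, under 2-fold) and 0.0069 ± 0.26 in pigs 44, 55 and 77 alone (adjusted p = 0.986).

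In PD, ADAMTS1 was at 157, 156, 160.5 and 144 CPM at 0h, so the 4 lungs lay close together. It was at 265, 365, 213 and 257 CPM at 6h and at 218, 351, 339 and 299 CPM at 12h. Every PD lung was higher at both later times than any was at 0h, as for 5.5% of all genes at 6h and 7.92% at 12h. The log2 FC of 0.81 ± 0.30 at 6h and 0.94 ± 0.30 at 12h stayed under 2-fold and above the adjusted threshold (adjusted p = 0.430 and 0.0843). Without the library of pig 2 at 12h the 12h value was 1.07 ± 0.30 (adjusted p = 0.0210) and was called.

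At 0h ADAMTS1 was lower in PD than in GS by a log2 FC of -1.06 ± 0.33 (edgeR adjusted p = 0.0232), the single gene of the 8 called there. Of all genes, 19.3% were called lower and 40.6% were called in either direction in that comparison, so a share of 1 in 8 is under the background. The ranges overlapped, since GS pig 17 had the lowest 0h level of all 9 lungs. The call was lost without GS pig 55 (adjusted p = 0.0517) and without PD pig 5 (adjusted p = 0.0624).

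ADAMTS4 (ENSSSCG00000006359, chr4:89260460-89269245), known as aggrecanase-1, had the largest FC of the 8 genes in PD in the fit of all PD pigs. In GS it was at 3.49, 4.66, 14.4, 9.71 and 7.82 CPM at 0h, 5.92, 9.99, 127, 92.0 and 88.2 CPM at 6h, and 9.60, 10.8, 65.8, 53.7 and 91.8 CPM at 12h. All 5 lungs were higher at both times, but pigs 9 and 17 reached no more than 10.8 CPM while pigs 44, 55 and 77 stood at 53.7 CPM or above. The log2 FC in GS was 2.37 ± 0.38 at 6h (adjusted p = 0.0012) and 2.09 ± 0.37 at 12h (adjusted p = 0.0012). Fitted in pigs 44, 55 and 77 alone, the log2 FC was 3.28 ± 0.24 at 6h and 2.76 ± 0.24 at 12h. In pigs 9 and 17 alone it was 0.96 ± 0.29 (adjusted p = 0.0903) at 6h and 1.32 ± 0.29 (adjusted p = 0.0380) at 12h.

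The PD level of ADAMTS4 was 7.81, 0.685, 6.88 and 2.02 CPM at 0h, 55.1, 84.1, 64.1 and 29.1 CPM at 6h, and 78.5, 47.8, 40.8 and 69.0 CPM at 12h. All 4 lungs were higher, with no overlap between 0h and either later time, as for 5.5% of all genes at 6h and 7.92% at 12h. The 0h levels rest on 13 to 143 counts, and pig 3, with 13 counts at 0h, had the steepest rise. In pig 3 the log2 ratio to 0h was 6.74 at 6h and 5.93 at 12h. The other PD lungs ran from 2.80 to 3.79 at 6h and from 2.55 to 5.03 at 12h. The log2 FC was 3.96 ± 0.69 at 6h (adjusted p = 0.0593) and 4.01 ± 0.69 at 12h (adjusted p = 0.0176). With every library kept the 6h value was called with no pig block (adjusted p = 0.0194), with no filter on low counts (0.0035), by DESeq2 (1.4e-08) and with all 27 libraries in 1 fit (0.0018), and it was called without the library of pig 2 at 12h (0.0068). The 12h call was lost without pig 3 (adjusted p = 0.121) or without pig 5 (adjusted p = 0.254). The difference between PD and GS in the change was 1.61 ± 0.74 at 6h and 1.91 ± 0.73 at 12h on the log2 scale (edgeR interaction, adjusted p = 0.783 and 0.766).

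ADAMTS9 (ENSSSCG00000011496, chr13:46034816-46207006) encodes a protease of versican and aggrecan that is also made by endothelial cells. In GS it was at 41.1, 64.9, 28.7, 12.4 and 23.2 CPM at 0h, 94.7, 88.0, 27.95, 25.6 and 23.5 CPM at 6h, and 116, 136, 22.8, 30.0 and 19.5 CPM at 12h. Pigs 9 and 17, which had the lowest ADAMTS4, had the highest ADAMTS9 of the GS group at every time. The log2 FC in GS was 0.46 ± 0.24 at 6h and 0.60 ± 0.25 at 12h (adjusted p = 0.171 and 0.0701). In pigs 9 and 17 alone it was 1.25 ± 0.22 at 12h (adjusted p = 0.0252), and in pigs 44, 55 and 77 alone 0.20 ± 0.28 (adjusted p = 0.590).

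Across the PD lungs ADAMTS9 was at 26.0, 17.1, 3.67 and 12.9 CPM at 0h, 18.1, 39.3, 39.9 and 22.1 CPM at 6h, and 9.17, 90.1, 72.3 and 40.1 CPM at 12h. Pigs 3, 4 and 5 were higher at both later times and pig 2 was lower at both. Its log2 FC in PD was 0.88 ± 0.70 at 6h and 1.62 ± 0.74 at 12h (adjusted p = 0.668 and 0.205). It became 2.28 ± 0.55 at 12h (adjusted p = 0.0128) without the library of pig 2 at 12h.

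**Figure D2:**
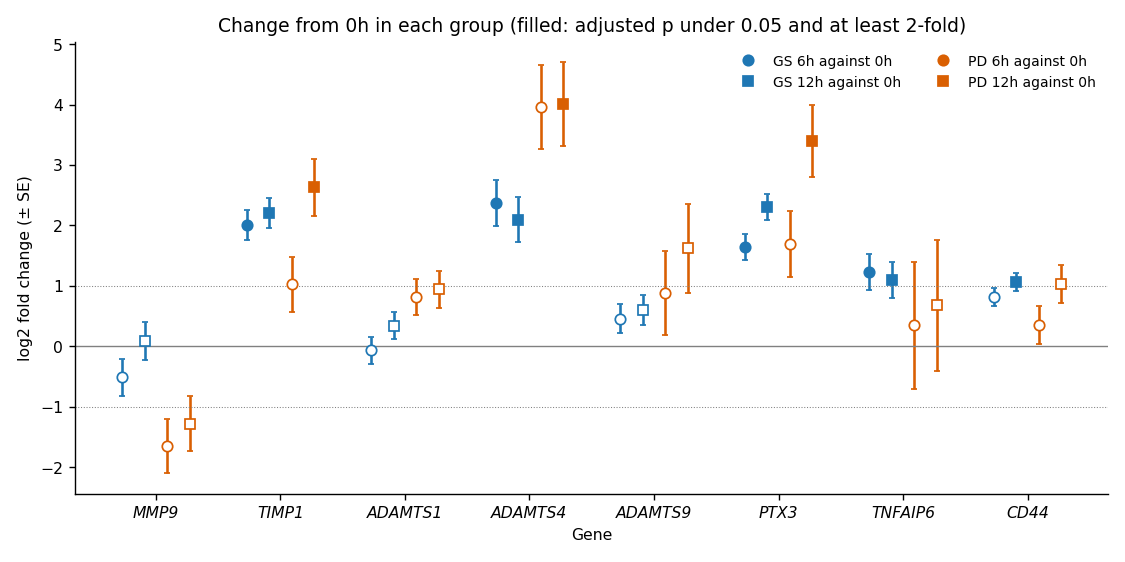
Log2 FC from 0h with its standard error (edgeR, pig as block) for the 8 genes, with GS in blue and PD in orange, circles for 6h and squares for 12h, filled where the gene was called; the dotted lines mark a 2-fold change. TIMP1, ADAMTS4 and PTX3 were called in GS at both times and in PD at 12h, MMP9 lay below 0 in PD at both times, and the PD error bars of TNFAIP6 and ADAMTS9 were wide.

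TIMP1 (ENSSSCG00000012277, chrX:42102172-42106297) encodes a secreted inhibitor that binds MMP9 among other MMPs. Its level in GS was 41.9, 20.4, 40.4, 41.5 and 41.8 CPM at 0h, 91.2, 70.7, 257, 150.4 and 229 CPM at 6h, and 169.7, 103, 174, 304 and 134 CPM at 12h. All 5 lungs were above every 0h value at both later times, which held for 5.82% of genes at 6h and 6.76% at 12h. The log2 FC in GS was 2.01 ± 0.25 at 6h (adjusted p = 0.0003) and 2.20 ± 0.25 at 12h (adjusted p = 9.3e-05). At 6h it was 1.47 ± 0.22 in pigs 9 and 17 alone and 2.38 ± 0.30 in pigs 44, 55 and 77 alone, called in both.

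For the PD group TIMP1 was at 67.7, 30.2, 56.4 and 44.7 CPM at 0h, 96.6, 74.3, 212 and 40.8 CPM at 6h, and 542, 129, 253 and 341 CPM at 12h. At 6h pig 5 was still below its 0h level while the other 3 lungs were higher, and at 12h all 4 lungs stood above the 0h range, as for 7.92% of all genes. Its log2 FC in PD was 1.03 ± 0.45 at 6h (adjusted p = 0.519) and 2.63 ± 0.47 at 12h (adjusted p = 0.0179). Without the library of pig 2 at 12h, where TIMP1 was highest, the 12h value was 2.37 ± 0.45 (adjusted p = 0.0053). The 12h call was lost without pig 3 (adjusted p = 0.171) or pig 5 (adjusted p = 0.254). The log2 ratio to 0h at 12h lay between 2.09 and 3.00 in all 4 lungs, so the size of the change did not rest on either pig. Between 6h and 12h in PD, TIMP1 differed by 1.604 ± 0.47 (adjusted p = 0.392), a difference that was called by DESeq2 (adjusted p = 0.0368) and with all 27 libraries in 1 fit (adjusted p = 0.0351).

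The ratio of TIMP1 CPM to MMP9 CPM in the same library, which is not scaled by gene length, followed from these values. In GS its median was 10.3 at 0h, 47.3 at 6h and 43.1 at 12h. In PD it was 7.63, 63.9 and 145. The ratio was higher than at 0h in all 9 lungs at both later times, and at 12h it ran from 17.4 to 104 in GS and from 72.0 to 198 in PD, so the groups overlapped.

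**Figure D3:**
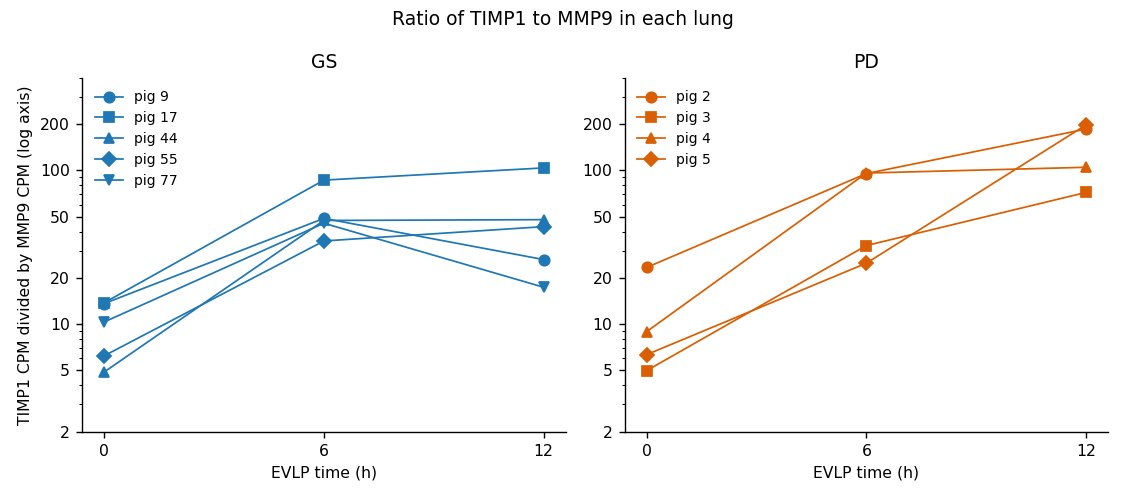
TIMP1 CPM divided by MMP9 CPM (log axis) in each lung against EVLP time in hours, GS on the left and PD on the right, with 1 line for each pig. The ratio was above its 0h value at 6h and 12h in all 9 lungs, and its 12h median was 43.1 for the GS lungs and 145 for the PD lungs.

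Of the hyaluronan genes, PTX3 (ENSSSCG00000011727, chr13:97273594-97279569) encodes a pentraxin, a soluble pattern recognition protein that also stabilises hyaluronan matrix. In GS it was at 10.8, 4.41, 5.48, 8.77 and 6.89 CPM at 0h, 22.7, 20.9, 27.1, 20.3 and 18.7 CPM at 6h, and 66.9, 27.5, 33.4, 27.5 and 32.6 CPM at 12h. The 3 times did not overlap, since every lung at 6h was above all 0h values and every lung at 12h above all 6h values. Of all genes 5.82% had 6h values wholly above those at 0h, 6.76% had 12h values above those at 0h and 0.14% had 12h values above those at 6h. The log2 FC from 0h was 1.64 ± 0.21 at 6h (adjusted p = 0.0004) and 2.31 ± 0.22 at 12h (adjusted p = 4.5e-05). The 12h level exceeded the 6h level by 0.67 ± 0.21, with an adjusted p of 0.9995, and no gene of the 18594 tested passed that comparison in edgeR while 4.74% had an unadjusted p under 0.05.

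In PD, PTX3 was at 11.3, 6.48, 6.31 and 5.15 CPM at 0h, 27.8, 14.3, 67.7 and 13.8 CPM at 6h, and 32.8, 36.0, 241 and 100.6 CPM at 12h. All 4 lungs were above the 0h range at both times, as for 5.5% of all genes at 6h and 7.92% at 12h, and pig 4 was the highest at both. In edgeR the PD log2 FC was 1.69 ± 0.55 at 6h (adjusted p = 0.340) and 3.39 ± 0.59 at 12h (adjusted p = 0.0179). With all 27 libraries in 1 fit the 6h value was called as well (adjusted p = 0.0406). The log2 FC at 12h was 3.85 ± 0.49 without the library of pig 2 (adjusted p = 0.0017), and the 12h call was lost without pig 3 (adjusted p = 0.166) or pig 5 (adjusted p = 0.254). The log2 ratios to 0h at 12h were 1.54, 2.46, 5.24 and 4.26, so pig 3 lay below their mean of 3.37 and pig 5 above it. The 12h change in PD minus that in GS was 1.05 ± 0.58 (edgeR interaction, adjusted p = 0.868), and the pigs overlapped. This difference was 1.52 ± 0.50 without the library of PD pig 2 at 12h (adjusted p = 0.103). Within PD the 12h level of PTX3 exceeded the 6h level by 1.70 ± 0.55 (edgeR adjusted p = 0.402). That rise was called with all 27 libraries in 1 fit (adjusted p = 0.0386).

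TNFAIP6 (ENSSSCG00000023716, chr15:862013-881461) encodes TSG-6, the enzyme that moves inter-alpha-inhibitor heavy chains onto hyaluronan. In GS it was at 12.3, 6.67, 3.04, 1.08 and 2.96 CPM at 0h, 17.8, 19.4, 8.88, 5.87 and 4.61 CPM at 6h, and 19.6, 17.5, 7.81, 6.76 and 2.65 CPM at 12h. All 5 lungs were higher at 6h and 4 of 5 at 12h, when pig 77 was just under its 0h level, and pigs 9 and 17 were the highest throughout. The log2 FC was 1.24 ± 0.30 at 6h (adjusted p = 0.0089) and 1.10 ± 0.30 at 12h (adjusted p = 0.0117). Both calls were lost without pig 44 (adjusted p = 0.0502 and 0.0552), and the 12h FC fell under 2 without pig 55 (log2 FC 0.78). In pigs 9 and 17 alone neither was called (adjusted p = 0.0829 and 0.0793), and in pigs 44, 55 and 77 alone both were (adjusted p = 0.0309 and 0.0458). With no pig block the adjusted p was 0.300 and 0.288, and with all 27 libraries in 1 fit 0.277 and 0.281.

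PD lungs had no common direction for TNFAIP6. Its level was 40.3, 14.4, 1.84 and 3.40 CPM at 0h, 66.1, 4.42, 48.6 and 2.11 CPM at 6h, and 3.88, 9.85, 63.6 and 10.4 CPM at 12h. Pig 4 was above its 0h level at both times and pig 3 below its own at both, while pig 2 was the highest at 0h and the lowest at 12h. In edgeR the log2 FC was 0.35 ± 1.05 at 6h and 0.68 ± 1.08 at 12h (adjusted p = 0.907 and 0.745), with standard errors over 3 times those in GS. The 12h value was 1.34 ± 0.81 without the library of pig 2 at 12h (adjusted p = 0.225).

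CD44 (ENSSSCG00000013297, chr2:25788704-25884153), the hyaluronan receptor of leukocytes, epithelium and stroma, was at 307, 154, 276, 326 and 342 CPM in GS at 0h. It was at 547, 300.1, 619, 432 and 577 CPM at 6h and at 472, 384, 729, 837 and 578 CPM at 12h. Every GS lung was higher at 6h and 12h than at 0h, pig 17 was the lowest at each time, and at 12h all were above the 0h range, as for 6.76% of all genes. The log2 FC was 0.81 ± 0.15 at 6h (adjusted p = 0.0026, under 2-fold and so not called) and 1.07 ± 0.15 at 12h (adjusted p = 0.0004). The 12h value lay near the 2-fold line and went just under it without pig 44 (log2 FC 0.998), without pig 55 (log2 FC 0.995) and in pigs 9 and 17 alone (log2 FC 0.96).

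The CD44 level in PD was 293, 278, 279 and 275 CPM at 0h, 396, 306, 569.5 and 229 CPM at 6h, and 573, 522, 665 and 563 CPM at 12h. The 0h values lay close together, pig 5 was lower at 6h while the other 3 were higher, and at 12h all 4 stood above the 0h range, as for 7.92% of all genes. Over these lungs the log2 FC was 0.35 ± 0.31 at 6h (adjusted p = 0.698) and 1.03 ± 0.31 at 12h (adjusted p = 0.0718). With every library kept the 12h value was called with no pig block (adjusted p = 0.0467), by DESeq2 (0.0069) and with all 27 libraries in 1 fit (0.0038), and it was called without the library of pig 2 at 12h (1.05 ± 0.32, adjusted p = 0.0297). At 12h the change in PD minus that in GS was -0.07 ± 0.31 on the log2 scale.

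With that library left out, 7 of the 8 genes were called in PD at 12h, MMP9 lower and the other 6 higher, and TNFAIP6 was not. The number of genes called over the whole table rose at the same time from 930 to 4161, so the gain was not particular to these genes. The choice to leave it out was made after the libraries were seen.

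**Figure D4:**
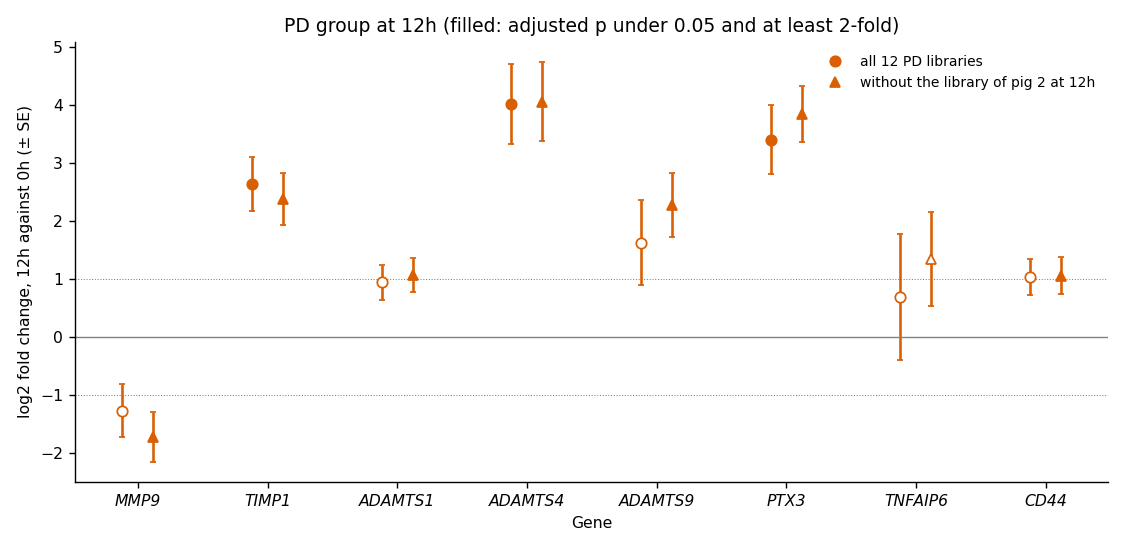
Log2 FC at 12h against 0h in PD with its standard error, for all 12 PD libraries (circles) and without the library of pig 2 at 12h (triangles), filled where the gene was called. The number of filled symbols rose from 3 to 7, and the estimates of TIMP1, ADAMTS1, ADAMTS4, ADAMTS9, PTX3, TNFAIP6 and CD44 moved by less than their standard error with all libraries; that of MMP9 moved from -1.28 to -1.73.

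Levels per length were compared between genes as RPKM, the CPM divided by the length in kilobases of the RefSeq exons of each gene, although the counts came from Ensembl models. At 0h in GS the mean was 83.2 ± 40.1 RPKM for ADAMTS1 (SD, n = 5), 52.0 ± 13.2 for TIMP1 and 49.5 ± 13.2 for CD44, and the ranges of these 3 overlapped. The other 5 genes were lower, from 2.05 ± 1.19 RPKM for MMP9 to 3.86 ± 1.36 for PTX3. At 12h TIMP1 stood first in both groups, at 247 ± 107 RPKM in GS and 441 ± 243 in PD (SD, n = 4). MMP9 stood last in both, at 2.25 ± 1.22 RPKM in GS and 0.959 ± 0.245 in PD. PTX3 at 12h was at 19.9 ± 8.80 RPKM in GS and 54.4 ± 51.7 in PD, the PD spread being set by pig 4.

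Likeness between genes was described by Pearson's r over the 27 libraries on log2 CPM centred within each pig, so that all values share libraries, time and depth. TIMP1 and CD44 were the most alike of the 8 (r = 0.93), followed by PTX3 and CD44 (r = 0.87) and TIMP1 and PTX3 (r = 0.86). MMP9 had a negative r with each of the other 7, from -0.60 to -0.28. Of 13098 genes compared, the 3 most like ADAMTS4 were IL6 (r = 0.94), SOCS3 (r = 0.92) and CHRM4 (r = 0.92). Those most like TIMP1 were EIF4A1, CLTB and BUD23 (r = 0.96 each), and those most like PTX3 were PHAX, PABPC4 and RDH10 (r = 0.95 to 0.96). For MMP9 they were STX4 (r = 0.85), HMCES and ACP6, and for CD44 CCDC6, CHMP4B and PNO1 (r = 0.96 each). For ADAMTS9 they were ARFGAP2, RHOJ and ANO6 (r = 0.94 each), for TNFAIP6 EIF4E, CLK4 and DENND4A (r = 0.92 to 0.94), and for ADAMTS1 ASB11, DKK1 and LRP6 (r = 0.77 to 0.83).

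A row named SHAS2 (ENSSSCG00000005992, chr4:17596472-17675586) is described in the table as hyaluronan synthase 2, and the reference gene table pairs its identifier with HAS2. It is not named HAS2 and was not counted among the 8, and its interval also covers a neighbouring locus. In GS it was at 3.52, 2.21, 1.41, 2.21 and 2.32 CPM at 0h, and at 0.492 to 3.90 CPM at the later times. In PD it was at 16.2, 8.38, 1.66 and 6.43 CPM at 0h, 14.4, 13.6, 16.97 and 2.50 CPM at 6h, and 5.18, 12.4, 18.6 and 7.97 CPM at 12h. Pig 4 had the lowest PD level at 0h and the highest at 6h and 12h. No change from 0h was called (log2 FC between -0.51 and 0.47, adjusted p from 0.342 to 0.875). At 0h the row was higher in PD by 1.85 ± 0.50 (adjusted p = 0.0117), where 21.3% of all genes were called higher, and at 12h the groups did not overlap, as for 9.7% of genes higher in PD.

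A second row, named MMP3 (ENSSSCG00000014985, chr9:33411065-33454000), covers the RefSeq loci of both MMP1 and MMP3, and the reference table pairs its identifier with MMP1. Counts in this row can come from either interstitial collagenase or stromelysin and cannot be told apart. It held 0 to 267 counts per library. In PD it was at 7.48, 1.32, 0 and 13.8 CPM at 0h, 2.28, 0.521, 13.6 and 0.689 CPM at 6h, and 1.62, 1.68, 18.4 and 5.74 CPM at 12h, and in GS between 0.114 and 4.51 CPM over all 15 libraries. The library at 0 counts, that of pig 4 at 0h, allows a level of up to 3 counts, or 0.147 CPM of its unscaled total. Pig 4 was higher than at 0h at both times while pigs 2 and 5 were lower, and no change from 0h was called in either group (adjusted p from 0.200 to 0.874).

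**Figure D5:**
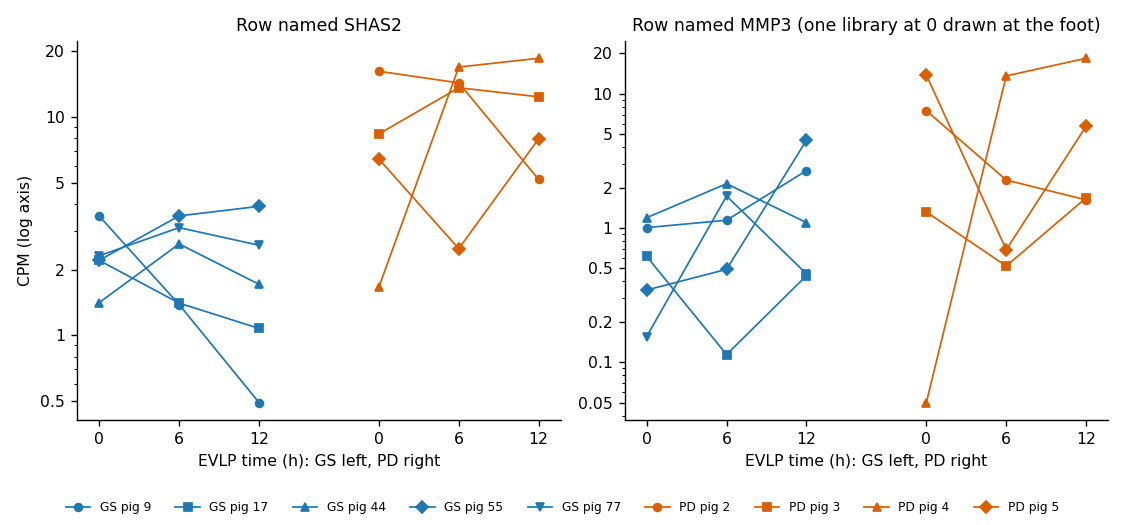
CPM (log axis) of the rows named SHAS2 (left) and MMP3 (right) in each lung at 0h, 6h and 12h, GS in blue and PD in orange, 1 line for each pig; the 1 library at 0 is drawn at the foot of its panel. In both rows PD pig 4 was the lowest PD lung at 0h and the highest at 6h and 12h.

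The other genes of these pathways, from lists of fixed membership, were mostly not called. Among all genes tested, 5.56% were called lower in GS at 6h, 8.66% at 12h, and 2.76% in PD at 12h. Of 17 other MMP genes tested in GS none was higher, and at 12h MMP28 (log2 FC -1.21) and MMP16 (-1.14) were lower. In PD 16 were tested and none was called at 6h or 12h, with a median log2 FC of -0.54 and -1.05. None of 9 other protease inhibitors was called at any time in either group, among them TIMP2, TIMP3, TIMP4, A2M and RECK. Of 16 other ADAMTS genes in GS none was higher, ADAMTS5 (-1.26) and ADAMTS20 (-1.14) were lower at 6h, and ADAMTS6 (-1.67) and ADAMTS20 (-1.49) were lower at 12h. ADAMTS5 is the other main aggrecanase, and its mean level in GS was 6.69 ± 2.63 CPM at 0h and 2.69 ± 0.573 at 6h, while ADAMTS4 rose. In PD, 1 of 14 other ADAMTS genes was called, ADAMTS6, which was lower at 12h (-1.75).

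Of 10 hyaluronan turnover genes tested in GS, 2 were higher at 6h, where 5.5% of all genes were (6.99% at 12h, and 3.22% in PD at 12h). They were the synthase HAS1 (log2 FC 1.18), at 1.59 ± 0.370 CPM at 0h and 3.596 ± 0.546 at 6h, and the hyaluronidase HYAL2 (1.07), at 73.3 ± 19.8 CPM and 155 ± 24.3. At 12h HYAL2 (1.25) and CEMIP (1.19), which takes part in hyaluronan breakdown, were higher and HYAL4 (-1.50) was lower. CEMIP in GS was at 2.19 to 11.3 CPM at 0h and 2.81 to 65.1 at 12h, and HYAL4 was under 1 CPM in every GS library at both times. In PD, CEMIP was the 1 called of 8 tested, higher at 12h (2.72), at 2.69 ± 0.646 CPM at 0h and 20.8 ± 14.9 at 12h. Among 14 hyaluronan binding genes in GS, AMBP, which encodes the light chain of inter-alpha-inhibitor, was higher at both times (1.77 and 2.12) with group means under 1 CPM. HMMR, a hyaluronan receptor that also marks dividing cells, was lower at both (-1.20 and -1.47). HABP2 (-1.40) was lower at 12h, with GS means of only 0.531 CPM at 0h and 0.213 at 12h. ITIH2 (-1.01), an inter-alpha-inhibitor heavy chain gene named after its value was seen, was lower at 12h as well. None of 12 was called in PD, and none of 7 proteoglycan substrate genes was called against 0h in either group.

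At 0h 40.6% of all genes were called between the groups, with the limits given above for levels in PD against GS. Of 15 other ADAMTS genes tested at 0h, 1 was higher and 8 were lower in PD, led by ADAMTS20 (log2 FC -1.86), ADAMTS7 (-1.80) and ADAMTS16 (-1.74), beside 21.3% of all genes higher and 19.3% lower. Of 16 other MMP genes, 3 were higher and 2 lower, among them the row named MMP3 (3.13), MMP24 (1.99) and the membrane-bound collagenase MMP14 (-1.57). MMP14 was at 281 ± 66.4 CPM in GS and 92.3 ± 45.0 CPM in PD at 0h. Of 7 proteoglycan genes 3 were higher, among them the small proteoglycan DCN (1.30) and the cell surface proteoglycan SDC1 (1.17), and 1 was lower, BGN (-1.02). Of the other lists, 3 of 9 protease inhibitors, 2 of 9 hyaluronan turnover genes and 2 of 13 hyaluronan binding genes were called at 0h, each a smaller share than that of all genes.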

How the data were processed

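The authors sequenced stranded mRNA libraries of lung biopsies, trimmed reads with Cutadapt 1.15, aligned them with TopHat2 2.0.14 to Sscrofa11.1 (Ensembl 101) and, per the submitters' processing notes, used featureCounts (Subread 1.6.0). Raw counts per gene were deposited and were used here as deposited. The strand setting, the treatment of multi-mapped reads and which extraction method each sample had are not given in the sources used here. All 27 columns were matched to samples by name.

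Genes passing edgeR's expression filter were tested in R 4.3.3 with edgeR 4.0.16 (TMM scaling, quasi-likelihood test), in each group with its 3 times and with the pig as a block, since same-numbered libraries are biopsies of the same animal. Residuals of the same pig correlated at a mean of 0.511 in GS and 0.108 in PD. PD and GS were compared at 0h, by an interaction term, and by an exact Wilcoxon test over pigs on changes in DESeq2's regularized log2 counts. CPM used TMM-scaled library sizes over all 27 libraries, and log2 changes per pig used CPM + 0.1. Calls against 0h needed an adjusted p under 0.05 with at least a 2-fold change, and other calls only the former. Alternatives were DESeq2 1.42.0, its size factors in edgeR, no filter, no block, all libraries in 1 fit, no fold threshold and each pig left out, and, chosen after seeing the data, GS pigs 44, 55 and 77 only, pigs 9 and 17 only, and the PD library of pig 2 at 12h left out. The tests were also run on simulated counts without differences between pigs, so that check does not cover the pig block. Sequences are from RefSeq (Sscrofa11.1), matched by symbol for all 8 genes. The 8 genes, the gene lists and the markers were chosen with earlier results of these data known. Genes named beyond the 8 were, of each list, up to 3 with the largest change among those called in a comparison, and the 3 most like each gene. Replicates are separate animals. Total counts per library limit the precision of low genes, and 3 counts is the level a library at 0 allows, for counting error only.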

Additional observations from a re-analysis of the deposited data

Results flagged for a closer look

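Of 80 sets of 4 or 5 values (log2 CPM or log2 ratio to 0h of 1 gene in 1 group at 1 time), 7 held a value far from the others by Dixon's criterion, which chance meets in about 1 of 20 sets. MMP9 in GS at 6h had a log2 ratio to 0h of 0.31 in pig 77, the single GS lung above its 0h level. MMP9 in PD at 6h had a log2 ratio of -2.05 in pig 5, further down than the other 3 lungs. TIMP1 in GS at 0h had a log2 CPM of 4.36 in pig 17, and CD44 in GS at 0h had 7.27 in the same pig, both below the other 4 lungs. ADAMTS1 in PD at 12h had a log2 ratio of 0.48 in pig 2, the lowest of the 4 and in the library that stood apart. PTX3 in GS at 12h had a log2 CPM of 6.07 in pig 9, above the other 4 lungs. PTX3 in PD at 6h had a log2 ratio of 3.40 in pig 4, above the other 3 lungs.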

How the results depend on the processing

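Over the single-gene values under all alternatives, 944 kept direction and side of the threshold, 29 passed it newly, 21 no longer passed it and 46 changed sign. PD values of MMP9 rest on 16 to 133 counts per library and those of ADAMTS4 at 0h on 13 to 143, which limits their precision. The cause of the changes below was not tested.

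With no replicate block the genes called numbered 1123 in place of 2057 (GS, 6h), 1896 in place of 2911 (GS, 12h), 100 in place of 22 (PD, 6h; 1 of the 8 called) and 1460 in place of 930 (PD, 12h). With all 27 libraries in 1 fit they were 1219 (GS, 6h), 479 (PD, 6h; 3 of the 8), 3300 (PD, 12h; 5 of the 8) and 492 in place of 0 (PD, 12h against 6h; 2 of the 8). DESeq2 gave 408 (PD, 6h; 2 of the 8), 2486 (PD, 12h; 5 of the 8), 6 (GS, 12h against 6h), 207 (PD, 12h against 6h; 1 of the 8), and 7 and 17 for the interaction at 6h and 12h. With no fold threshold GS gave 5295 and 7136, and with no filter PD at 6h gave 103 (1 of the 8). GS pigs 9 and 17 only gave 876 at 6h (2 of the 8) and 1324 at 12h. Without the library of PD pig 2 at 12h, PD gave 252 at 6h (2 of the 8) and 4161 at 12h (7 of the 8).

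Leaving out each pig, the genes called ranged from 1318 to 2148 (GS, 6h), from 0 to 98 (PD, 6h; 0 to 1 of the 8), from 0 to 3826 (PD, 12h; 0 to 7 of the 8), and from 0 to 254 and 0 to 153 for the interaction at 6h and 12h. Of the 8, 3 to 5 were called in GS at 12h and 0 to 1 in PD against GS at 0h.

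Signs that changed were of log2 values that passed no test. In pigs 9 and 17 only, ADAMTS1 in GS at 6h was 0.38 and ADAMTS4 between 12h and 6h 0.37. In pigs 44, 55 and 77 only, MMP9 at 12h was -0.034, and TIMP1 and ADAMTS9 between 12h and 6h were -0.097 and -0.083. With no replicate block TNFAIP6 in PD between 12h and 6h was -0.48. Without the library of PD pig 2 at 12h MMP9 there was -0.086 and the 12h interaction of TNFAIP6 0.22. With no filter PTX3 and CD44 in PD against GS at 0h were -0.019 and -0.027. Leaving out each pig, ADAMTS1 in GS at 6h ranged from -0.18 to 0.063, MMP9 in GS at 12h from -0.15 to 0.39, and TNFAIP6 in PD from -0.29 to 1.13 at 6h and from -0.033 to 1.38 at 12h. Between 6h and 12h, TIMP1 in GS ranged from -0.024 to 0.43, and in PD MMP9 from -0.062 to 0.63, ADAMTS1 from -0.034 to 0.25, ADAMTS4 from -0.40 to 0.48 and TNFAIP6 from -0.38 to 1.11. The interaction at 6h ranged from -0.18 to 1.14 for ADAMTS9 and from -0.40 to 0.25 for PTX3, and at 12h from -1.21 to 0.28 for TNFAIP6 and from -0.15 to 0.017 for CD44. The Wilcoxon differences ranged from -0.062 to 0.64 for ADAMTS9, from -0.23 to 0.28 for PTX3 and from -1.07 to 0.28 for TNFAIP6 at 6h, and from -1.21 to 0.59 for TNFAIP6 and from -0.089 to 0.041 for CD44 at 12h. PD against GS at 0h ranged from -0.24 to 0.24 for PTX3 and from -0.13 to 0.10 for CD44.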
